A study of Oryza sativa Japonica Group with 8 samples.

Results

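The genes described here are 6 stress transcription factors of rice, taken by their gene identifiers out of 37869 genes in the deposited table. They are the DREB1 genes DREB1A (Os09g0522200), DREB1B (Os09g0522000) and DREB1C (Os06g0127100), the DREB2 genes DREB2A (Os01g0165000) and DREB2B (Os05g0346200), and the NAC gene SNAC1 (Os03g0815100), whose deposited description reads similar to OsNAC6. They were followed in leaf RNA of 4 groups with 2 libraries each. OsGRP3 OX plants carry the coding sequence of the glycine-rich RNA-binding protein gene OsGRP3 behind the OsCc1 promoter in cultivar Nakdong, and NT Nakdong plants are the non-transgenic plants of that cultivar, which the labels call wild type. OsGRP3 KD plants carry an RNA interference construct with a 3′ UTR fragment of OsGRP3 behind the OsGOS2 promoter in cultivar Dongjin, and NT Dongjin plants are the non-transgenic plants of that cultivar. All plants were 4 weeks old and grew at 28 °C with 16 h of light and 8 h of dark, with no stress treatment. The labels do not say whether the libraries of a group came from separate plants, so the p-values measure only the spread between these libraries.

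DREB proteins belong to the AP2/ERF family and bind the dehydration-responsive element in the promoters of stress genes such as dehydrins and late embryogenesis abundant (LEA) proteins. DREB1 proteins, also called CBF, are known for induction by cold, and DREB2 proteins for induction by drought, salt and heat. SNAC1 belongs to the NAC family and is known in rice for drought induction in guard cells, where its overexpression improves drought resistance. In unstressed leaves such genes are usually held at low levels, and no stress was applied to these plants.

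The libraries held between 25836946 and 38940899 estimated counts. OsGRP3 itself had 1527 and 1928 CPM (counts-per-million) in OsGRP3 OX, against 1250 and 1171 CPM in NT Nakdong (log2 fold change 0.51, SE 0.12, adjusted p = 0.0666, edgeR). It had 345 and 325 CPM in OsGRP3 KD, against 400 and 403 CPM in NT Dongjin (log2 fold change -0.26, SE 0.12, adjusted p = 0.0761). Neither line thus passed the threshold for its own target here. The study itself reports larger changes of OsGRP3 in both lines, by qRT-PCR and in its own RNA-seq fold values. OsGRP3 was also lower in NT Dongjin than in NT Nakdong (-1.59, SE 0.12, adjusted p = 5.49e-06), and lower in OsGRP3 KD than in NT Nakdong (-1.85, SE 0.12, adjusted p = 7.02e-05). Both NT Dongjin libraries stood apart from the other 6. Over 5735 genes with at least 3 exons, coverage of the first exon relative to the last had a median log2 ratio of -0.76 and -0.69 in NT Dongjin and between -2.62 and -2.24 elsewhere, so reads leaned toward the 3′ end in all libraries and least in NT Dongjin. The clock gene Os08g0157600, described as a circadian clock MYB factor, had 4100 and 4106 CPM in NT Dongjin and between 140 and 167 CPM elsewhere. The summed level of 5 leaf marker genes, of which none was at 0 in any library, was between 22624 and 22698 CPM in NT Dongjin and between 56611 and 71990 CPM elsewhere. Of the 3 root markers, 1 or 2 were at 0 in each library, and both meristem markers were at 0 in 7 libraries. Whatever sets NT Dongjin apart and the knockdown itself cannot be told apart in the OsGRP3 KD against NT Dongjin comparison, so values of OsGRP3 KD are also given against NT Nakdong, where line and cultivar differ together. As in any bulk tissue, fewer cells of a type and less RNA per cell cannot be told apart.

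On the length-corrected TPM scale (transcripts-per-million) the members covered a wide range. DREB2B was the highest, between 31.0 and 52.0 TPM over the 8 libraries, and SNAC1 followed with 12.9 to 30.1 TPM. DREB2A lay between 2.64 and 7.12 TPM. The DREB1 genes were near the limit of detection, with 0.248 to 2.62 TPM for DREB1A, 0 to 1.68 TPM for DREB1B and 0 to 0.325 TPM for DREB1C. Of the 6 members, 5 passed the filter on low counts and were tested, and DREB1C did not.

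**Figure D1:**
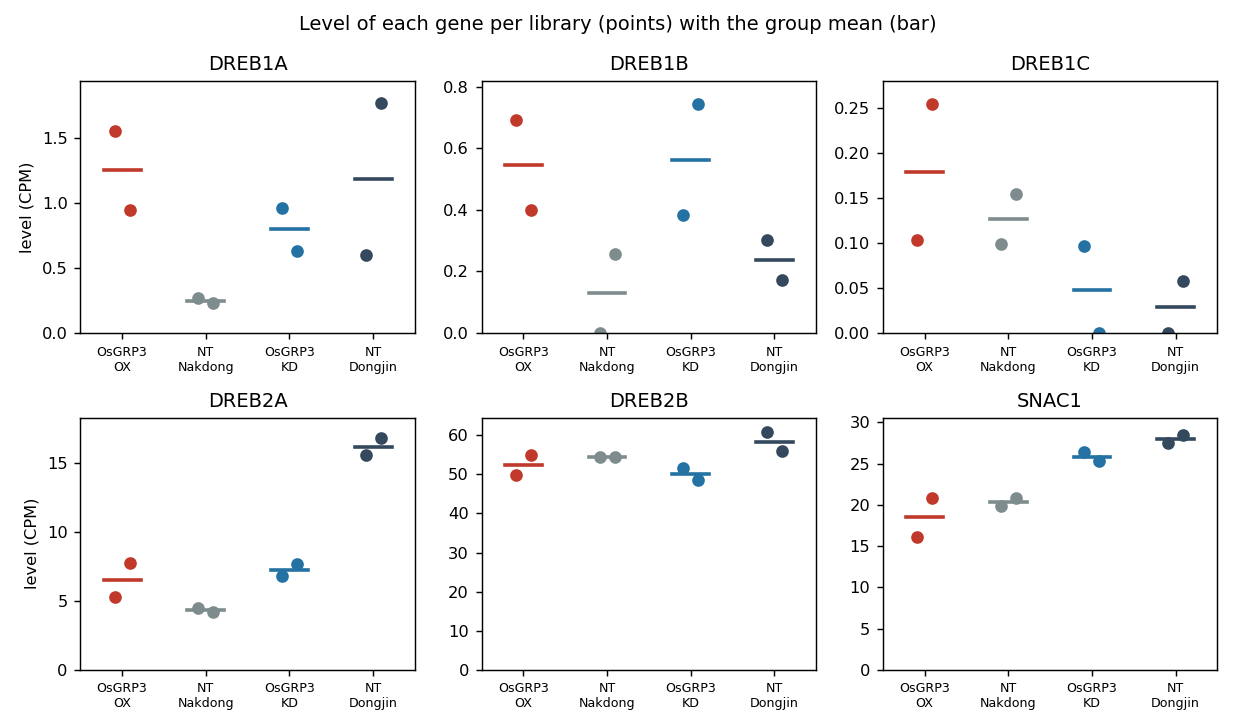
Level of each of the 6 genes in CPM (counts-per-million, TMM-scaled), with a point per library and a bar for the mean of each group of 2 libraries. DREB2A has 15.6 and 16.8 CPM in NT Dongjin and at most 7.72 CPM elsewhere, DREB2B and SNAC1 are near the same level in each line and its NT plants, and the DREB1 genes lie below 2 CPM.

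Between OsGRP3 OX and NT Nakdong plants, the study's own comparison for the overexpression line, no member passed 2-fold with an adjusted p under 0.05. OsGRP3 itself did not pass that threshold in these libraries either (log2 fold change 0.51, adjusted p = 0.0666, edgeR). In this comparison 1.47% of the 24383 genes tested did so. DESeq2 also called 0 members. At an unadjusted p under 0.05 edgeR passed 2 of the 5 tested members, DREB1A and DREB2A, beside 14.1% of all genes tested. The median log2 fold change of the 5 tested members was 0.58, and that of all genes tested was 0.

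DREB1A, a cold-induced CBF-type activator, had 45 and 26 counts in OsGRP3 OX, against 8 and 9 counts in NT Nakdong. Each OsGRP3 OX library exceeded both NT Nakdong libraries, so the groups did not overlap. The log2 fold change was 2.32 (SE 0.66, 95% interval 0.82 to 3.82), a 4.98-fold higher level, with an adjusted p of 0.142 in edgeR. The adjusted p lay between 0.0847 and 0.528 over 14 alternatives, and none of them called the gene. From the pooled counts, 71 against 17, the ratio was 5.09 with an exact 95% counting interval of 2.97 to 9.22, which covers counting error only.

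DREB1B, its neighbour on chromosome 9, had 20 and 11 counts in OsGRP3 OX, against 0 and 10 counts in NT Nakdong. The OsGRP3 OX libraries were the higher ones, but by 1 count at the nearest pair. The log2 fold change was 1.96 (SE 1.07, adjusted p = 0.464). It was 1.07 without the first NT Nakdong library (adjusted p = 0.857) and 7.01 without the second (adjusted p = 0.302), where the remaining library is at 0 and the fitted value depends on the prior count. DREB1C had 3 and 7 counts in OsGRP3 OX, against 3 and 6 counts in NT Nakdong, and the pooled ratio of 1.35 had an exact 95% counting interval of 0.495 to 3.77. A difference in DREB1C was not detectable at this depth.

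DREB2A, which in rice and Arabidopsis binds the same element under dehydration, had 5.25 and 7.72 CPM in OsGRP3 OX, against 4.47 and 4.18 CPM in NT Nakdong. The groups did not overlap, and the second OsGRP3 OX library carried most of the distance. The log2 fold change was 0.58 (SE 0.20, adjusted p = 0.214), and without the first OsGRP3 OX library it was 0.84 with an adjusted p of 0.0464, still under 2-fold. Without the second OsGRP3 OX library it was 0.28 (adjusted p = 0.549). Over 15 alternatives the adjusted p of DREB2A lay between 0.0464 and 0.609. DREB2B had 49.8 and 54.8 CPM in OsGRP3 OX, against 54.4 and 54.4 CPM in NT Nakdong, a log2 difference of -0.06 with a 95% interval of -0.26 to 0.14. SNAC1 had 16.1 and 20.8 CPM in OsGRP3 OX, against 19.8 and 20.8 CPM in NT Nakdong, a log2 difference of -0.14 with a 95% interval of -0.43 to 0.15. For DREB2B and SNAC1 the intervals leave out a 2-fold change in either direction.

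**Figure D2:**
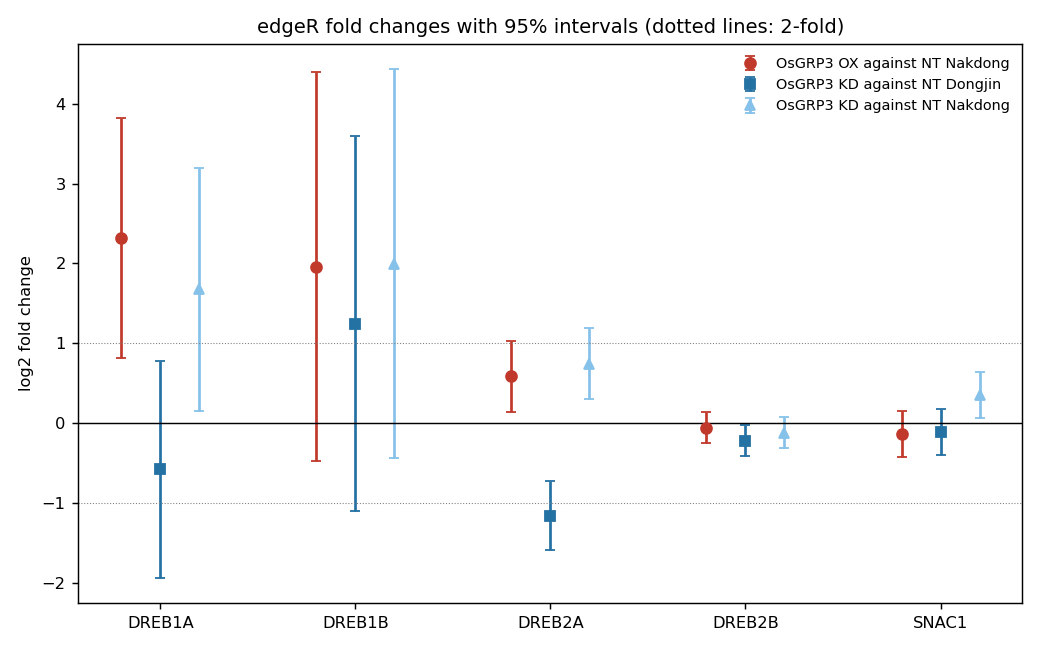
Log2 fold change with its 95% interval from edgeR for the 5 tested members (vertical axis), for OsGRP3 OX against NT Nakdong and for OsGRP3 KD against each of the NT groups; dotted lines mark 2-fold. DREB2A lies at -1.16 against NT Dongjin and at 0.74 against NT Nakdong for the same OsGRP3 KD libraries, and the DREB1 intervals are several units wide.

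Between OsGRP3 KD and NT Dongjin plants, the study's own comparison for the RNA interference line, DREB2A was the single member called, and it was lower. In this comparison 13.8% of the genes tested were called lower, 23.8% higher and 37.6% in either direction. DESeq2 called 1 member as well. The median log2 fold change of the 5 tested members was -0.22, and that of all genes tested was 0.14.

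DREB2A had 6.82 and 7.65 CPM in OsGRP3 KD, against 15.6 and 16.8 CPM in NT Dongjin. The groups were far apart, with each NT Dongjin library above every other library of the series. DREB2A fell by 1.16 on the log2 scale (SE 0.19, adjusted p = 0.000662). On the length-corrected FPKM scale the same gene had 2.83 and 4.57 FPKM in OsGRP3 KD, against 4.45 and 5.12 FPKM in NT Dongjin, and the second OsGRP3 KD library overlapped NT Dongjin. The call was lost there, with a log2 difference of -0.32 on the log2(FPKM + 1) scale (limma, adjusted p = 0.295). It was also lost on counts of the 3′-most exon, at -0.35 (adjusted p = 0.488). For DREB2A these counts add the last exon of each of its 2 annotated transcripts, which are different exons. They therefore depend on how the reads were split between the transcripts and do not measure the 3′ end of the gene alone. The FPKM of the gene depends on that split as well, since the transcripts differ in length. Over 14 alternatives the adjusted p lay between 7.28e-06 and 0.488, and 10 of them kept the call. Against NT Nakdong, DREB2A in the same OsGRP3 KD libraries was on the other side, with a log2 fold change of 0.74 (SE 0.20, adjusted p = 0.0525).

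The libraries also differed in how the reads of DREB2A were given to its annotated transcripts. The gene lies on the plus strand of chromosome 1 (build IRGSP-1.0) with a short transcript of 2 exons and 1428 bases, from 3356383 to 3358426, and a long transcript of 3 exons and 3638 bases, from 3356461 to 3361204. The first and second exon of both overlap, and the third belongs to the long form. The short form took 56.0% and 94.1% of the gene's transcript coverage in the OsGRP3 KD libraries, against 8.15% and 19.2% in NT Dongjin. It took 80.0% and 95.1% in OsGRP3 OX, against 86.7% and 86.1% in NT Nakdong. The NT Dongjin libraries were thus the pair in which the long form prevailed.

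Exon by exon, summed over both forms and scaled to 30000000 counts, the first exon of DREB2A was covered by 4.54 and 4.21 reads per base in the OsGRP3 KD libraries, against 15.0 and 20.5 in NT Dongjin. The second exon had 10.9 and 17.8 reads per base in the OsGRP3 KD libraries, against 17.8 and 19.6 in NT Dongjin. The third exon had 2.32 and 2.08 reads per base in the OsGRP3 KD libraries, against 7.22 and 7.36 in NT Dongjin. The first and the third exon were therefore higher in both NT Dongjin libraries than in both OsGRP3 KD libraries. The same held for the second exon of the long form. For the second exon the short and the long form went in opposite directions. In OsGRP3 OX and NT Nakdong the third exon had 1.98 to 4.28 reads per base, while the first and second exons of the long form were given 0. The NT Dongjin libraries also had the weaker 3′ weighting of coverage, although the third exon was higher there too. The part of this weighting in the DREB2A difference was not tested.

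**Figure D3:**
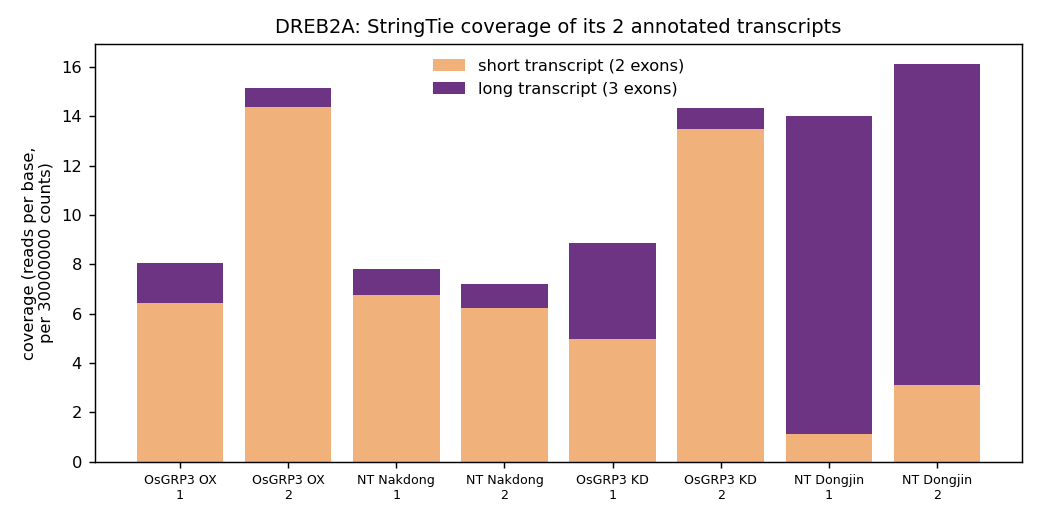
StringTie coverage of the short and the long DREB2A transcript in each library, in reads per base scaled to 30000000 counts and stacked. The long form takes most of the bar in both NT Dongjin libraries, and the short form takes 56.0% to 95.1% in the other 6 libraries.

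DREB1A had 30 and 17 counts in OsGRP3 KD, against 16 and 61 counts in NT Dongjin. The groups overlapped, and the NT Dongjin libraries were further from each other than from OsGRP3 KD. The log2 fold change was -0.58 (SE 0.59, adjusted p = 0.420), and without the second NT Dongjin library it was 0.40. DREB1B had 12 and 20 counts in OsGRP3 KD, against 8 and 6 counts in NT Dongjin (log2 fold change 1.25, SE 1.03, adjusted p = 0.317). DREB1C had 3 and 0 counts in OsGRP3 KD, against 0 and 2 counts in NT Dongjin, too few to compare, with a pooled ratio of 1.58 and an exact 95% counting interval of 0.181 to 18.9.

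DREB2B had 51.7 and 48.5 CPM in OsGRP3 KD, against 60.8 and 55.9 CPM in NT Dongjin. The groups did not overlap, but the log2 fold change was -0.22 (SE 0.09) with an adjusted p of 0.0538. SNAC1 had 26.4 and 25.3 CPM in OsGRP3 KD, against 27.5 and 28.5 CPM in NT Dongjin (log2 fold change -0.12, SE 0.13, adjusted p = 0.451). On counts of the 3′-most exon both distances grew, to -0.69 for DREB2B (adjusted p = 0.000522) and -0.45 for SNAC1 (adjusted p = 0.0160), each still under 2-fold. Those counts had their own library sizes and scaling. Scaled to 30000000 counts of the whole library, the last exon of SNAC1 had 71.1 and 69.3 reads per base in NT Dongjin. The OsGRP3 KD libraries were higher there, at 77.1 and 73.5. The last exon of DREB2B was at 119.9 and 112.2 in NT Dongjin. There the OsGRP3 KD libraries were lower, at 111.6 and 98.8. The part of the scaling in the grown distances was not tested. Over 14 alternatives the adjusted p lay between 0.000522 and 0.282 for DREB2B and between 0.0160 and 0.680 for SNAC1. Against NT Nakdong no member of the OsGRP3 KD libraries was called by edgeR or DESeq2, beside 4.40% of all genes tested, and 3 passed an unadjusted p under 0.05, beside 24.6% of all genes. Those were DREB2A, DREB1A at a log2 fold change of 1.67 (SE 0.67, adjusted p = 0.164) and SNAC1 at 0.35 (SE 0.13, adjusted p = 0.134).

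The coverage of exons in DREB2B and SNAC1 followed the pattern of their libraries. SNAC1, with 2 exons on the plus strand of chromosome 3 from 34166100 to 34167521, had a log2 ratio of first to last exon of -0.75 and -1.03 in the OsGRP3 KD libraries, against -0.26 and -0.05 in NT Dongjin. It was -0.89 and -0.86 in OsGRP3 OX, against -1.18 and -0.83 in NT Nakdong. DREB2B, on the minus strand of chromosome 5 from 16297074 to 16300385, has 3 annotated exons, and its ratio was -1.48 and -1.51 in the OsGRP3 KD libraries, against -0.23 and -0.51 in NT Dongjin. In both genes the exons were most alike in coverage in NT Dongjin.

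The second exon of DREB2B, 53 bases from 16299291 to 16299343, is of interest because rice is known to make a form with it, whose reading frame is broken, and a form without it, which encodes the full activator and builds up under stress. Only the form with this exon is annotated in the deposited files, so only the coverage of the exon could be given. The second exon had 1.40 and 1.34 times the coverage of the first in OsGRP3 OX, against 1.03 and 1.18 times in NT Nakdong. It had 1.27 and 1.28 times in OsGRP3 KD, against 1.10 and 1.26 times in NT Dongjin. The second exon was thus covered at least as deeply as the first in all 8 libraries. The groups did not overlap in either comparison, by a narrow margin in the second one. With 2 libraries a group no test was made of these ratios.

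**Figure D4:**
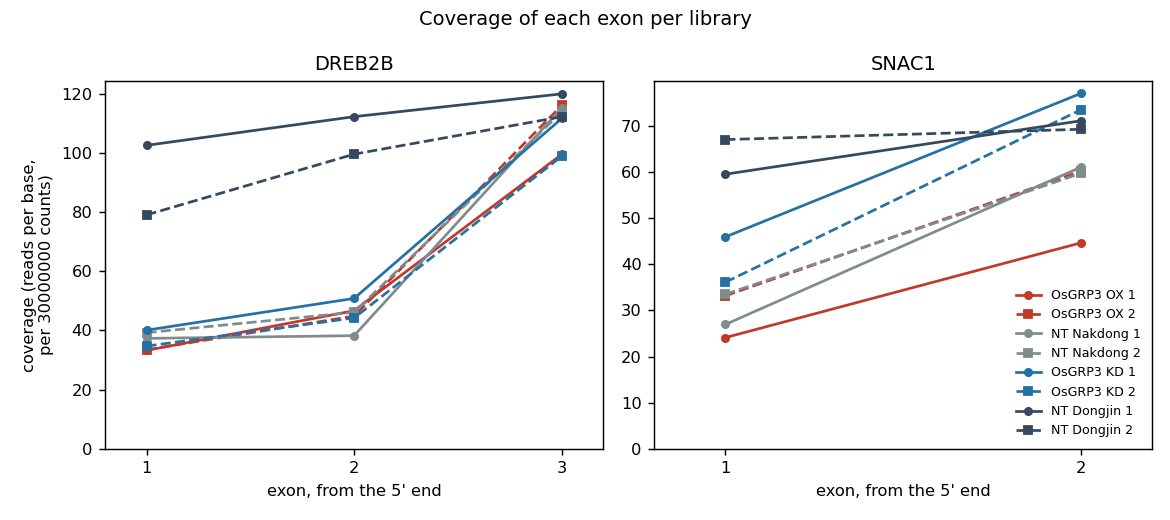
Coverage of each exon of DREB2B and SNAC1 from the 5′ end, in reads per base scaled to 30000000 counts, with a line per library. Coverage climbs toward the last exon in all libraries, and least so in NT Dongjin.

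The difference between the OX change and the KD change, each line against its own NT plants, passed the threshold for 2 of the 5 tested members, DREB2A and DREB1A, beside 12.0% of all genes tested called higher and 34.0% in either direction. For DREB2A the difference was 1.74 on the log2 scale (SE 0.27, adjusted p = 0.000791), made of 0.58 in OsGRP3 OX and -1.16 in OsGRP3 KD. On the log2(FPKM + 1) scale it was 0.75 (adjusted p = 0.115) and on 3′-most exon counts 0.93 (adjusted p = 0.216), so the call was lost on both. Both the FPKM and the 3′-most exon counts depend on the split of reads between the short and the long transcript. The adjusted p lay between 5.97e-06 and 0.216 over 17 alternatives. For DREB1A the difference was 2.90 (SE 0.89, adjusted p = 0.0235), made of 2.32 and -0.58. That call was lost without the first NT Nakdong (adjusted p = 0.0668), the second NT Nakdong (0.0832), the first OsGRP3 OX (0.0682), the second NT Dongjin (0.132) or the second OsGRP3 KD library (0.0620). Over 16 alternatives its adjusted p lay between 0.0104 and 0.132, and 10 kept the call. DREB1B, DREB2B and SNAC1 had differences of 0.71, 0.16 and -0.02, and their adjusted p-values were 0.720, 0.303 and 0.936.

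Set in order over the 4 groups, DREB2A was highest in NT Dongjin at 16.2 ± 0.829 CPM (SD, n = 2 for each mean here), followed by OsGRP3 KD at 7.24 ± 0.583, OsGRP3 OX at 6.48 ± 1.75 and NT Nakdong at 4.33 ± 0.207 CPM. The step below NT Dongjin passed the test, and neither of the other steps did (adjusted p = 0.707 and 0.214). NT Dongjin plants had more DREB2A than NT Nakdong plants (log2 fold change 1.90, SE 0.19, adjusted p = 3.68e-05) and more DREB1A (2.25, SE 0.66, adjusted p = 0.0146), so 2 of the 5 tested members were called higher in that comparison beside 14.3% of all genes tested. The adjusted p of DREB1A lay between 0.00552 and 0.181 over 13 alternatives, of which 8 called it. That of DREB2A lay between 6.41e-13 and 0.290 over 14, of which 10 called it.

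SNAC1 ran from 28.0 ± 0.727 CPM in NT Dongjin through 25.8 ± 0.789 in OsGRP3 KD and 20.3 ± 0.692 in NT Nakdong to 18.5 ± 3.33 CPM in OsGRP3 OX. No step between neighbours passed the test. Its ends did differ, at -0.60 in OsGRP3 OX against NT Dongjin (SE 0.13, adjusted p = 0.00294), and NT Dongjin lay above NT Nakdong by 0.46 (SE 0.13, adjusted p = 0.0111), both under 2-fold. The 4 libraries of the Dongjin background were thus all above the 4 of the Nakdong background, by 25.3 to 28.5 CPM against 16.1 to 20.8 CPM. DREB2A was also called lower in OsGRP3 OX than in NT Dongjin (-1.32, SE 0.19, adjusted p = 0.000303), beside 15.2% of all genes tested called lower. Between OsGRP3 OX and OsGRP3 KD no member was called by edgeR or DESeq2, beside 2.36% of all genes tested, and SNAC1 alone passed an unadjusted p under 0.05, beside 20.2% of all genes (-0.48, SE 0.13, adjusted p = 0.0743). DREB2B spanned 50.1 ± 2.23 CPM in OsGRP3 KD to 58.4 ± 3.48 CPM in NT Dongjin, and no neighbours in its order differed beyond their spread. DREB1A averaged 1.25 ± 0.432 CPM in OsGRP3 OX, 1.18 ± 0.822 in NT Dongjin, 0.796 ± 0.233 in OsGRP3 KD and 0.249 ± 0.0232 CPM in NT Nakdong. DREB1B averaged 0.564 ± 0.253 CPM in OsGRP3 KD, 0.545 ± 0.206 in OsGRP3 OX, 0.237 ± 0.0901 in NT Dongjin and 0.129 ± 0.182 CPM in NT Nakdong. In neither gene did a step between neighbours in the order pass the test, and NT Nakdong was the lowest group for both.

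The 3 DREB1 members are single-exon genes. DREB1B lies from 20395262 to 20395703 and DREB1A from 20403413 to 20404332 on the minus strand of chromosome 9, with a gene described as DREB1H (Os09g0522100) between them from 20399458 to 20400198, while DREB1C lies from 1434770 to 1435533 on the plus strand of chromosome 6. The DREB1H gene had 0 and 2 counts in OsGRP3 OX, against 9 and 0 in NT Nakdong, and 5 and 3 counts in OsGRP3 KD, against 2 and 3 counts in NT Dongjin. These copies are related in sequence, and reads shared among them could be split by the authors' counting, so single DREB1 counts are uncertain. DREB1A was the member of the cluster with the most counts in each group.

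Other DREB and CBF genes, picked by keyword from the deposited descriptions, numbered 21 in the table, and 14 of them were tested. This list also holds 3 genes similar to ICE1, a factor that switches on CBF genes in Arabidopsis, and a CBF1-interacting co-repressor gene. In OsGRP3 OX against NT Nakdong none was higher and 1 was lower past the threshold, beside 1.47% of all genes tested called. The median log2 fold change was -0.03 beside 0 for all genes tested. The lower one was the ICE1-like Os01g0705700, which had 2.90 and 3.91 CPM in OsGRP3 OX, against 6.96 and 7.95 CPM in NT Nakdong (-1.13, SE 0.23, adjusted p = 0.0465). In OsGRP3 KD against NT Dongjin 2 were higher and 2 lower, beside 37.6% of all genes tested called, with a median of 0.37 beside 0.14 for all genes. DESeq2 called 3 of the list. The most marked with counts in every library was Os04g0549700, similar to DREB1F, with 6.57 and 3.90 CPM in OsGRP3 KD, against 0.339 and 0.376 CPM in NT Dongjin (3.85, SE 0.40, adjusted p = 4.48e-05). Its level in OsGRP3 OX and NT Nakdong was 3.84 to 6.19 CPM, so NT Dongjin was the group apart. Os02g0752800, similar to DREB2B, had 278 and 236 CPM in OsGRP3 KD, against 495 and 492 CPM in NT Dongjin, just under 2-fold (-0.94, SE 0.11, adjusted p = 6.68e-05).

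The 6 possible upstream regulators included 2 of the ICE1-like genes above and MYBS3, a repressor of DREB1 genes in rice. None of the 6 was called in OsGRP3 OX against NT Nakdong by edgeR or DESeq2 (median -0.27), beside 1.47% of all genes tested. An unadjusted p under 0.05 was passed by 1, beside 14.1% of all genes. In OsGRP3 KD against NT Dongjin 1 was higher and 1 lower (median -0.06), beside 37.6% of all genes tested called. The MYBS3-like gene Os10g0561400 had 89.8 and 94.9 CPM in OsGRP3 KD, against 150 and 157 CPM in NT Dongjin, a change under 2-fold at -0.73 on the log2 scale. The 2 called were helix-loop-helix gene Os07g0143200, lower at -1.82 (SE 0.20), and Os04g0517100, higher at 2.89 (SE 0.46).

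Among 6 other stress NAC genes none was called in OsGRP3 OX against NT Nakdong by edgeR or DESeq2 (median -0.28), beside 1.47% of all genes tested. There 0 passed an unadjusted p under 0.05, beside 14.1% of all genes. In OsGRP3 KD against NT Dongjin 3 were lower (median -1.18), beside 13.8% of all genes tested called lower and an overall median of 0.14. DESeq2 called 2 of the 6 in that comparison. The OsNAC5-like gene Os11g0184900 had 19.4 and 21.8 CPM in OsGRP3 KD, against 83.7 and 89.3 CPM in NT Dongjin (-2.07, SE 0.10, adjusted p = 5.49e-07). Os12g0123700, with a NAM domain, had 5.93 and 5.42 CPM in OsGRP3 KD, against 65.0 and 65.1 CPM in NT Dongjin (-3.52, SE 0.54). Against NT Nakdong edgeR and DESeq2 called none of the 6 in OsGRP3 KD, beside 4.40% of all genes tested. Of the 6, 2 passed an unadjusted p under 0.05, beside 24.6% of all genes. SNAC1 had a log2 fold change of -0.12 in the comparison with NT Dongjin.

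Dehydrin, LEA and salt-induced genes were listed as target genes of the dehydration response. Whether DREB proteins drive these genes in these leaves was not tested. Of 9 listed, 7 were tested and none was called in OsGRP3 OX against NT Nakdong by edgeR or DESeq2 (median 0.04). Of all genes tested 1.47% were called there. An unadjusted p under 0.05 was passed by 1 of the 7, beside 14.1% of all genes. In OsGRP3 KD against NT Dongjin 3 were lower and 1 was higher (median -0.33, beside 0.14 for all genes), where 13.8% of all genes tested were called lower and 23.8% higher. DESeq2 called 4. The dehydrin gene RAB21 (Os11g0454300) had 3.11 and 2.04 CPM in OsGRP3 KD, against 21.9 and 24.0 CPM in NT Dongjin (-3.14, SE 0.47, adjusted p = 0.000406). SalT (Os01g0348900), a salt-induced lectin gene, had 294 and 100.02 CPM in OsGRP3 KD, against 13.7 and 12.2 CPM in NT Dongjin (3.92, SE 0.67, adjusted p = 0.000886). Against NT Nakdong the OsGRP3 KD libraries had 1 called target, the dehydrin RAB 16C (Os11g0454000), at 1.42 (SE 0.35, adjusted p = 0.0437). Of all genes tested 4.40% were called there. In that comparison 6 of the 7 tested targets passed an unadjusted p under 0.05, beside 24.6% of all genes, and the median was 0.89 beside 0.01 for all genes. SalT was among the 6 with a negative fold change of -1.59 (adjusted p = 0.141), and RAB 16B (Os11g0454200), at 0.89 (adjusted p = 0.432), was the gene that did not pass. Genes that respond to wounding and handling had a median of 0.82 in the same comparison, with 1 of 9 called higher by edgeR, 0 by DESeq2 and 6 of 9 at an unadjusted p under 0.05, and their part in the target values was not tested.

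Clock genes were set beside these values. Of 9 clock genes none was called in OsGRP3 OX against NT Nakdong by edgeR or DESeq2 (median 0.01), beside 1.47% of all genes tested. There 0 passed an unadjusted p under 0.05, beside 14.1% of all genes. In OsGRP3 KD against NT Dongjin 2 were higher and 1 lower, where 37.6% of all genes tested were called and DESeq2 called 3 of the 9. The lower one was Os08g0157600 (-4.87, SE 0.10, adjusted p = 4.33e-08). Against NT Nakdong neither tool called any of the 9 in OsGRP3 KD, beside 4.40% of all genes tested. Of the 9, 2 passed an unadjusted p under 0.05, beside 24.6% of all genes. Many cold and drought genes, DREB1 genes among them, follow the day, and the labels give no hour of harvest. The part of the clock difference in the DREB2A, NAC and dehydrin values was not tested.

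**Figure D5:**
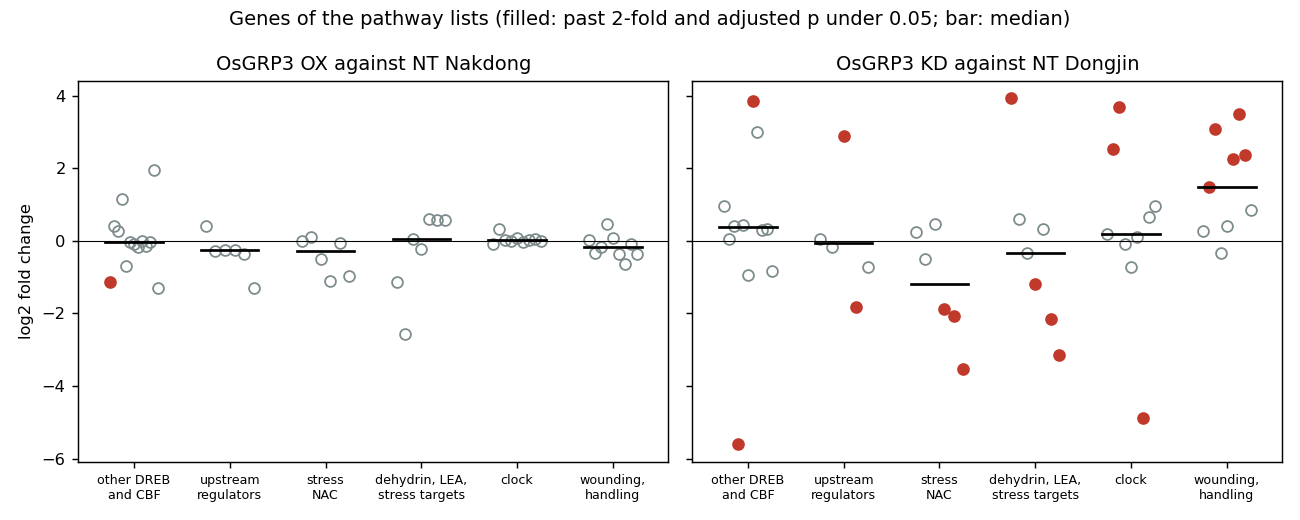
Log2 fold change of the tested genes of 6 lists (a point per gene) for OsGRP3 OX (left) and OsGRP3 KD (right), each against its own NT plants; filled points passed 2-fold with an adjusted p under 0.05, bars are list medians over all tested genes, and genes at 0 counts in a whole group are not drawn. For OsGRP3 OX 1 point is filled, and for OsGRP3 KD every list has filled points.

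The pattern of each tested member over the 8 libraries was compared with that of all other genes, and the 3 with the highest Pearson correlation were kept as a description, since the points share the library pattern already described. For DREB2A these were Os03g0367900, a pyroglutamyl peptidase family gene (r = 0.992), Os12g0183100, similar to a branched chain alpha-keto acid dehydrogenase subunit (r = 0.991), and Os05g0545000, similar to a phosphatidylinositol transfer-like protein (r = 0.989). All 3 were highest in NT Dongjin. For SNAC1 the nearest was Os05g0438800, similar to actin 1 (r = 0.984), and for DREB2B a conserved hypothetical gene, Os12g0119700 (r = 0.979). For DREB1B it was Os05g0542732 (r = 0.973) and for DREB1A Os09g0328800 (r = 0.925), both without a named function.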

How the data were processed

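Leaf mRNA was sequenced in 8 libraries. The labels name a stranded TruSeq kit, HISAT2, Bowtie2 and StringTie. The deposited transcript files name HISAT and StringTie 1.3.4d on IRGSP-1.0, and the study's methods name TopHat. The authors derived the estimated counts from StringTie coverage; these were already whole and took the place of the plain read counts the analysis had been designed for. In each library at least 37867 of 37869 genes equal coverage times transcript length over the read length of 101, rounded up per transcript, and the largest difference was 6 counts. The deposited FPKM and TPM values are StringTie's. Coverage per exon was deposited with the transcripts.

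Counts were TMM-scaled, filtered by filterByExpr and fitted with edgeR 4.0.16 (quasi-likelihood, a mean per group, all 8 libraries) in R 4.3.3. Calls needed 2-fold and a Benjamini-Hochberg adjusted p under 0.05 over all 24383 genes. A floor of 3 counts was used for genes at 0 in a group, in the bounds of the lists' medians. Alternatives were median-of-ratios scaling, DESeq2 1.42.0, no filter, a minimum of 10 counts per library, a fit of the compared libraries alone, a replicate block, limma 3.58.1 on log2(FPKM + 1) and log2(FPKM + 0.1) with a mean FPKM of 0.5 or no filter, counts of the 3′-most exon, and each library left out. Counts of the 3′-most exon took the last exon of each annotated transcript, summed per gene, with their own filter, library sizes and TMM scaling. A fit without NT Dongjin was added after the data were seen. The scripts were tested on simulated data. The genes named are the 6 members, genes of the lists with their values, and the 3 genes most like each member among genes with a mean log2 CPM of 1 or more. The members and lists were chosen with earlier results of these data known. The share of each DREB2B transcript and the protein identity between members were not analysed here.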

Additional observations from a re-analysis of the deposited data

Results flagged for a closer look

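For DREB2A the change in OsGRP3 OX and the change in OsGRP3 KD, each against its own NT plants, differed by 1.74 on the log2 scale (edgeR interaction contrast, adjusted p = 0.000791). The change was 0.58 in OsGRP3 OX and -1.16 in OsGRP3 KD. Both NT Dongjin libraries were higher than the other 6 in counts, and the difference lost its call on FPKM and on counts of the 3′-most exon. For this gene both of these measures depend on the split of reads between its annotated transcripts.

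For DREB1A the changes differed by 2.90 on the log2 scale in the same contrast (adjusted p = 0.0235), with 2.32 in OsGRP3 OX and -0.58 in OsGRP3 KD. The counts behind it were between 8 and 61 in a library, and neither change passed the threshold on its own.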

How the results depend on the processing

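No member was called in OsGRP3 OX against NT Nakdong, OsGRP3 KD against NT Nakdong or OsGRP3 OX against OsGRP3 KD under any of 15 alternatives each, the fit without NT Dongjin included. With limma on log2(FPKM + 0.1) and, filtered or not, on log2(FPKM + 1), and with counts of the 3′-most exon, the members called were 0 in OsGRP3 KD against NT Dongjin and 0 in OsGRP3 OX against NT Dongjin, where 1 had been called. For the difference of the OX and KD changes the 2 calls became 1 with at least 10 counts in every library, 1 on log2(FPKM + 1), 1 on log2(FPKM + 0.1), 0 on log2(FPKM + 1) without a filter and 1 on the 3′-most exon. For NT Dongjin against NT Nakdong they became 1, 0, 1, 0 and 1 in the same order. DREB1A fails the filter of 10 counts in every library. With a library left out, the calls ranged from 1 to 2 in both of these comparisons, and without the first or second NT Nakdong or the second NT Dongjin library DREB1A was the one lost in both.

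Of 224 fold changes of single members under an alternative, 199 kept their direction and side of the threshold, 14 lost the call and 11 changed sign. SNAC1's difference of the OX and KD changes, -0.02, was 0.0061 with median-of-ratios scaling, 0.0065 with DESeq2 and 0.25 on the 3′-most exon, and ranged from -0.22 to 0.15 with a library left out. Leaving out a library gave -0.13 to 0.011 for DREB2B and -0.33 to 0.035 for SNAC1 in OsGRP3 OX, -1.15 to 0.40 for DREB1A in OsGRP3 KD, and -0.18 to 5.76 for DREB1B's difference, where the remaining NT Nakdong library can be at 0 counts and the fitted value depends on the prior count. The cause of these shifts was not tested. With a replicate block the calls were 0, 1 and 2 in the OX, KD and difference contrasts, as without it. Deviations of libraries with the same number correlated at -0.05 to -0.0006, so the numbers do not pair the libraries. The difference of changes uses all 8 libraries, so a fit of only the libraries compared gave no value for it.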

Other observations

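Genes that respond to wounding and handling were set beside the stress factors. The 9 listed included tify genes, WRKY genes and zinc finger genes. None was called in OsGRP3 OX against NT Nakdong by edgeR or DESeq2 (median log2 fold change -0.17), beside 1.47% of all genes tested. An unadjusted p under 0.05 was passed by 1, beside 14.1% of all genes. In OsGRP3 KD against NT Dongjin 5 were higher (median 1.48), beside 23.8% of all genes tested and an overall median of 0.14, and DESeq2 called 5. In OsGRP3 KD against NT Nakdong 1 was called higher by edgeR and 0 by DESeq2, beside 4.40% of all genes called in either direction. In that comparison 6 passed an unadjusted p under 0.05 beside 24.6% of all genes, and the median was 0.82. The tify gene Os09g0439200 had 16.0 and 16.7 CPM in OsGRP3 KD, against 1.35 and 1.5 CPM in NT Dongjin, and 8.18 and 16.2 CPM in OsGRP3 OX, against 19.7 and 18.1 CPM in NT Nakdong.

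The ICE1-like gene Os11g0523700 had 6.28 and 1.96 CPM in OsGRP3 OX, against 9.87 and 10.6 CPM in NT Nakdong. It had 0.384 and 0 CPM in OsGRP3 KD, against 0 and 0 CPM in NT Dongjin. NT Dongjin was at least 209.6-fold lower than NT Nakdong, with a floor of 3 counts over the group. The libraries of the Dongjin background, line and NT plants alike, were thus at or near 0 for this gene.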
